A study of Danio rerio with 15 samples.

Results

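Neutrophils of tet2/tet3 double mutant zebrafish embryos were compared with neutrophils of wildtype embryos of the same age, across every gene measured. The comparison rests on 6 of the study's 15 libraries, 3 labelled tet2/3DM and 3 labelled wildtype, which were chosen by their labels alone. Both groups were taken at 2 days post fertilization (dpf), and both carried a reporter in which the promoter of mpx, the myeloperoxidase gene of neutrophils, drives green fluorescent protein, on which the cells were sorted. The other libraries of the study, 3 each of tet2 single mutants, tet3 single mutants and wildtype at 1.5 dpf, are not described here. The labels give neither the alleles of the mutants nor how many embryos, clutches or sorts lie behind a library, so the p-values rest on library-to-library spread that may be purely technical.

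Tet enzymes are dioxygenases that oxidise 5-methylcytosine in DNA, the opening step of active demethylation. In zebrafish, Tet2 and Tet3 act redundantly in the formation of blood stem cells. Neutrophils are short-lived phagocytes that migrate along chemical gradients, engulf microbes and kill them with granule proteins and with the superoxide of the phagocyte oxidase.

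Values are normalised read counts, that is, reads per gene after scaling by the size factor of each library. They compare libraries for 1 gene and do not compare genes, since transcript lengths were not used. Differences are double mutant minus wildtype on the log2(value + 1) scale, which understates the change of low genes, and adjusted p-values are those of limma with Benjamini-Hochberg adjustment over 15917 genes. A gene is said to rise or fall where that adjusted p was under 0.05. To show how far a call holds with a library missing, the fit was repeated 6 times with 1 library left out each time, and the text names the libraries whose omission ended a call. A refit has fewer libraries and can detect less, so a lost call does not by itself show that it rested on the library left out. Beside the count of a list, brackets give its lowest and highest count over these refits where they differ from it by over 1.5 times. Most moves from 0 to 1 gene are left out.

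Double-mutant libraries held 31.06, 27.39 and 27.19 M (mega) recovered reads, and wildtype libraries 12.18, 14.84 and 13.89 M. Replicates correlated at 0.881 to 0.945 in double mutants and at 0.957 to 0.968 in wildtype (Pearson's r across genes, which are not independent replicates). The lowest value was that of double-mutant libraries 1 and 2. Transcripts of mpx, lyz, csf3r and cybb, all genes that neutrophils express, were present in every library at the values given below. Transcripts of other cells were present too: collagen col1a1a was among the 10 genes of the highest mean value, and muscle and heart genes took 0.643% of all normalised counts in double-mutant library 1, against 0.0714 and 0.0992% in the other double-mutant libraries and 0.288 to 0.319% in wildtype. Heat-inducible chaperone genes took 0.536, 5.06 and 1.59% of all normalised counts in double mutants, against 8.5, 9.68 and 9.28% in wildtype, with no overlap between the groups. The part that heat stress and other cells have in the differences below was not tested. In sorted cells measured in bulk, fewer cells of a type and less RNA per cell cannot be told apart.

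Of the 15917 genes tested, 731 rose and 993 fell in double mutants, which is 4.59% and 6.24% of genes and 10.8% together. List counts below are to be read beside these shares. A list with shares near them was called about as often as genes at large. The median difference over all genes was 0.01. Groups did not overlap for 1723 of the 1724 genes called, and for 4970 of all 15917 genes tested. A lack of overlap between 3 and 3 libraries was thus common, and it adds little to a call. Among the genes that rose, 256 differed by under 1 on the log2 scale and 59 by 3 or more, and among those that fell, 238 differed by under 1 and 123 by 3 or more. Genes with a mean value of at least 5000 were called more often than genes with a mean under 50 (17% of 418 against 4.79% of 1899), and the called genes among them differed by less (median size 0.95 against 2.81). In the 6 refits the number called was 2595 and 3114 without double-mutant library 1 and 2, and 796 without double-mutant library 3. It was 760, 681 and 633 without wildtype library 1, 2 and 3. 520 genes were called in all 6 refits. With library weights 5507 genes were called, and with the level of the heat shock gene hsp70l as a covariate over all 15 libraries 159 were.

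**Figure D1:**
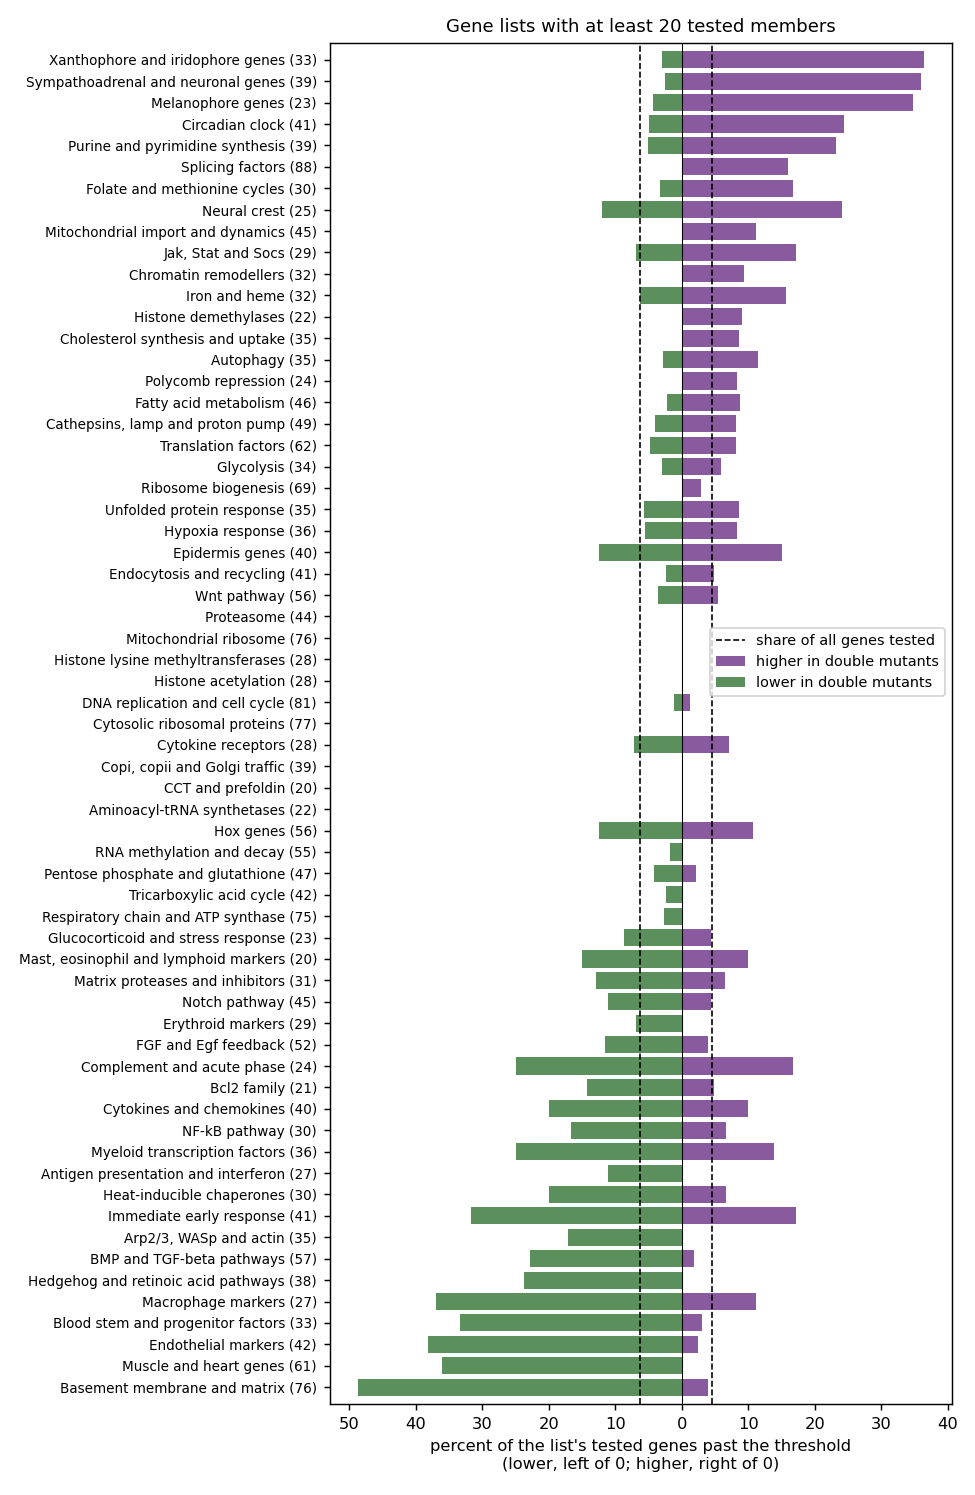
Percent of the tested members of each gene list that rose (bars to the right of 0) or fell (bars to the left) in tet2/tet3 double mutants relative to wildtype, for 63 lists with at least 20 tested members, whose number stands in brackets. Dashed lines mark the share of all 15917 genes tested, 4.59% higher and 6.24% lower. The longest bars are those of pigment cell, neuronal and clock genes to the right and of matrix, endothelial and macrophage genes to the left, while proteasome, ribosomal protein and tRNA synthetase genes have none.

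Neither targeted gene passed the test by limma with all 6 libraries. tet2 had 592, 2528 and 1388 normalised counts in double mutants, against 1542, 1704 and 1894 in wildtype. The groups overlapped, and double-mutant library 1 was lowest and library 2 highest of all 6 (log2 difference -0.42, adjusted p = 0.643). tet3 had 1772, 3062 and 2138 normalised counts in double mutants, against 1166, 1335 and 1620.4 in wildtype, so all double-mutant libraries were above all wildtype libraries, but the difference did not pass the test (log2 difference 0.73, adjusted p = 0.0625). It passed by DESeq2 (adjusted p = 0.0205) and by limma without double-mutant library 1 (adjusted p = 0.00659), and not by edgeR (adjusted p = 0.057). The labels do not say what the mutant alleles do to the mRNA, so these counts are no check of the genotype. tet1, which encodes the remaining enzyme of the family, had 235, 749 and 389.78 normalised counts in double mutants, against 286, 501 and 477 in wildtype, with overlapping groups. The enzymes that write and maintain the mark did not pass either with all 6 libraries: 0 of 10 methyltransferase and partner genes was called by limma, edgeR or DESeq2, and 1 had an unadjusted p under 0.05 by limma (median difference 0.08). Without double-mutant library 1, dnmt3ba among them rose by limma (adjusted p = 0.0387). dnmt1, the maintenance methyltransferase, had 2546, 2273 and 2913 normalised counts in double mutants, against 2078, 1973 and 2049 in wildtype, and its partner uhrf1 had 2641, 3271 and 3456 normalised counts in double mutants, against 2785, 2823 and 2904 in wildtype. Of 16 genes for the removal of oxidised cytosine, 1 rose and 2 fell (0 rose without double-mutant library 3 and 2 without double-mutant library 1, and 0 fell without double-mutant library 3), all members of the stress-induced gadd45 family. gadd45ab had 321, 266 and 202 normalised counts in double mutants, against 571, 539.75 and 446 in wildtype, without overlap (log2 difference -0.996, SE 0.24, adjusted p = 0.0251), and gadd45ba also fell while gadd45gb.1 rose. These 3 calls were lost without double-mutant library 3 or wildtype library 1, 2 or 3, with adjusted p of up to 0.171. Among 8 genes of proteins that read methylated CpG (0 rose without double-mutant library 3 and 2 without double-mutant library 1), mbd5 alone rose (log2 difference 1.04, adjusted p = 0.0304), a call lost without double-mutant library 3 or wildtype library 1, 2 or 3, with adjusted p of up to 0.11.

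Several granule genes of neutrophils fell, while no oxidase gene passed the test. mpx had 45100, 33304 and 49243 normalised counts in double mutants, against 37006, 38570 and 33867 in wildtype, with overlapping groups (log2 difference 0.20, adjusted p = 0.505). Of 12 tested granule protein genes, 5 fell and 0 rose (median difference -0.15, 2 rose without double-mutant library 2), and over the refits the number that fell ran from 1 without wildtype library 1 to 5 without double-mutant library 1. lect2l, which encodes a chemotaxin-like protein of zebrafish neutrophils, had 1221, 1195 and 1176 normalised counts in double mutants, against 2999.8, 2539 and 2199.8 in wildtype. Double-mutant libraries lay within a narrow band below all wildtype libraries (log2 difference -1.09, SE 0.16, adjusted p = 0.00266), and the call was held in all 6 refits. lyz, the lysozyme gene, had 71695, 77495 and 79701 normalised counts in double mutants, against 141150, 119150 and 105760 in wildtype (log2 difference -0.67, adjusted p = 0.0193), and its groups did not overlap. Its difference was 0.10 after quantile normalization, where it was not called. cpa5, nccrp1 and srgn, the gene of the granule proteoglycan serglycin, had differences of -0.74, -0.71 and -0.75. Of these, cpa5 is also on the list of mast cell, eosinophil and lymphoid markers. The calls of lyz, cpa5, nccrp1 and srgn were lost without double-mutant library 3 or wildtype library 1, 2 or 3 for lyz, nccrp1 and srgn, and without wildtype library 1, 2 or 3 for cpa5, with adjusted p of up to 0.143. None of 11 oxidase genes passed by limma, edgeR or DESeq2 with all 6 libraries, and 1 had an unadjusted p under 0.05 by limma. Without double-mutant library 1, 1 oxidase gene fell by limma. cybb, the catalytic subunit, had 7763, 6817 and 7963 normalised counts in double mutants, against 6916, 7016 and 6921 in wildtype (log2 difference 0.11, adjusted p = 0.685). The gene ncf1, a cytosolic subunit, had 8243, 9885 and 8100.1 normalised counts in double mutants, against 9926, 10056 and 8268 in wildtype (log2 difference -0.11, adjusted p = 0.722).

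Genes for migration were mostly lower where they were called. Of 18 tested chemoattractant receptor genes, 1 rose and 5 fell (0 rose without double-mutant library 3 and 3 without double-mutant library 2), and the number that fell ran from 2 without wildtype library 3 to 6 without double-mutant library 1. s1pr4, a leukocyte receptor for sphingosine 1-phosphate, had 23.0, 23.2 and 27.0 normalised counts in double mutants, against 297, 181 and 298 in wildtype. Every double-mutant library was far below every wildtype library (log2 difference -3.32, SE 0.35, adjusted p = 0.000439). ccr9a, a chemokine receptor gene, had 392, 131 and 255 normalised counts in double mutants, against 999, 852 and 793 in wildtype (log2 difference -1.89, adjusted p = 0.00883), a call lost without wildtype library 1, with adjusted p of up to 0.0535. The atypical receptor genes ackr4b (log2 difference -2.10, adjusted p = 0.00896) and ackr3a (log2 difference -1.84, adjusted p = 0.015) also fell, as did CU861476.1, which is known here by its clone name. cxcr3.3 was the receptor gene that rose, with 1094, 1969.8 and 1633 normalised counts in double mutants, against 649, 728 and 647 in wildtype (log2 difference 1.17, adjusted p = 0.00897). The calls of ackr4b, ackr3a, CU861476.1 and cxcr3.3 were lost without wildtype library 3 for ackr4b, without double-mutant library 3 or wildtype library 1, 2 or 3 for ackr3a, without double-mutant library 3 or wildtype library 2 or 3 for CU861476.1, and without double-mutant library 3 or wildtype library 1 or 3 for cxcr3.3, with adjusted p of up to 0.12. csf3r, the receptor for granulocyte colony-stimulating factor, was chosen after its values were seen and had 2386, 1987 and 2418 normalised counts in double mutants, against 2120.5, 2277 and 2831 in wildtype, with overlapping groups (log2 difference -0.09, adjusted p = 0.808).

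The actin machinery that drives a leading edge had 6 members that fell among 35 tested and none that rose (median difference -0.21, 1 without wildtype library 2 to 7 without double-mutant library 2 over the refits). They belong to the WASp complex and its surroundings, and cfl1l among them is also on the list of epidermis genes. wasb, a zebrafish gene for the Wiskott-Aldrich syndrome protein that activates Arp2/3 in blood cells, had 649, 596 and 618 normalised counts in double mutants, against 2818, 2722 and 2689 in wildtype. Each group lay within a narrow band, and the groups stood far apart (log2 difference -2.14, SE 0.15, adjusted p = 7.65e-05), in all 6 refits. Its paralogue wasa (log2 difference -0.84, adjusted p = 0.0189), the WASp-interacting genes wipf1b (log2 difference -0.77, adjusted p = 0.0118) and wipf1a (log2 difference -0.74, adjusted p = 0.0223), the cofilin-like gene cfl1l (log2 difference -0.76, adjusted p = 0.0179) and vaspa (log2 difference -0.82, adjusted p = 0.0241) fell by less. These calls were lost without wildtype library 1, 2 or 3 for wasa, wipf1a and vaspa, without wildtype library 2 or 3 for wipf1b, and without double-mutant library 3 or wildtype library 1, 2 or 3 for cfl1l, with adjusted p of up to 0.115. The beta-actin genes did not pass: actb2 had 214150, 198400 and 232950 normalised counts in double mutants, against 295680, 250440 and 247220 in wildtype, and actb1 had 172730, 125400 and 148890 normalised counts in double mutants, against 224980, 176240 and 171640 in wildtype. Of 19 leukocyte adhesion genes, 3 rose and 2 fell (1 rose without double-mutant library 3 and 5 without double-mutant library 2, and 1 fell without wildtype library 2). itgae.1, an integrin alpha gene, had 249, 396 and 293 normalised counts in double mutants, against 737, 984 and 807 in wildtype (log2 difference -1.44, SE 0.23, adjusted p = 0.00351). The gene itgb7, an integrin beta gene, had 1885, 1752 and 2351 normalised counts in double mutants, against 1233, 1227 and 1245 in wildtype (log2 difference 0.68, adjusted p = 0.0268). The call of itgb7 was lost without double-mutant library 3 or wildtype library 1, 2 or 3, with adjusted p of up to 0.127.

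Some genes of sensing and inflammatory signalling fell, and fewer rose. Of 17 Toll-like receptor and adaptor genes, 2 fell and 0 rose (1 fell without double-mutant library 3). tlr18, a receptor gene of fish, had 122, 133 and 119 normalised counts in double mutants, against 614, 615 and 641 in wildtype. The groups were tight and apart (log2 difference -2.32, SE 0.21, adjusted p = 0.00019). tlr21, whose product senses microbial DNA in fish, also fell (log2 difference -1.09, adjusted p = 0.0249), a call lost without double-mutant library 3 or wildtype library 1, 2 or 3, with adjusted p of up to 0.14. In the NF-kB pathway 2 rose and 5 fell of 30 members (0 rose without double-mutant library 3 and 4 without double-mutant library 1), and the number that fell ran from 3 without wildtype library 1 to 6 without double-mutant library 2. The median difference of this list was 0.01, with 15 positive and 15 negative members. nfkbiaa, which encodes the inhibitor IkB-alpha and is itself a target of NF-kB, had 4833, 4205 and 2528 normalised counts in double mutants, against 21718, 22373 and 18726 in wildtype. Its wildtype libraries were all above its double-mutant libraries (log2 difference -2.49, SE 0.23, adjusted p = 0.000207). nfkbiab, its paralogue, had 6854, 4766 and 4022 normalised counts in double mutants, against 17246, 17451 and 14579 in wildtype (log2 difference -1.69, adjusted p = 0.000832). The gene ikbkg, the regulatory subunit of the IkB kinase, had 671, 742 and 808 normalised counts in double mutants, against 1603, 1741 and 1404 in wildtype (log2 difference -1.09, adjusted p = 0.00303). These 3 calls were held in all 6 refits. map3k14a, which encodes the kinase of the noncanonical branch, fell (log2 difference -0.84, adjusted p = 0.0096), while that branch's nfkb2 (log2 difference 0.90, adjusted p = 0.0131) and chuk (log2 difference 0.84, adjusted p = 0.0143) rose, calls lost without wildtype library 1, 2 or 3 for map3k14a, without double-mutant library 3 or wildtype library 2 or 3 for nfkb2, and without double-mutant library 3 or wildtype library 1, 2 or 3 for chuk, with adjusted p of up to 0.0853. il1b, the gene of the inflammatory cytokine interleukin 1 beta, had 1863, 1515 and 992 normalised counts in double mutants, against 9119.7, 8184 and 6756 in wildtype. Double-mutant libraries were all below wildtype libraries (log2 difference -2.50, SE 0.23, adjusted p = 0.000207).

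In the Bcl2 family, which sets the threshold for cell death, 1 rose and 3 fell of 21 tested members (0 rose without double-mutant library 3 and 5 without double-mutant library 2, and 1 fell without double-mutant library 3). mcl1a, a short-lived survival protein on which neutrophils of mammals depend, had 8414, 12143 and 7004 normalised counts in double mutants, against 60961, 58010 and 56071 in wildtype. The groups did not come near each other (log2 difference -2.71, SE 0.20, adjusted p = 7.86e-05), and the call was held in all 6 refits. The list's share of all normalised counts was 0.131, 0.141 and 0.111% in double mutants, against 0.419, 0.408 and 0.397% in wildtype. Most of the list's wildtype counts, 72144, 68231 and 65430 in sum, were those of mcl1a, so the lower share is mainly that of this gene. The median difference over the list was -0.15, with 9 positive and 12 negative members. bcl2a had 94.1, 139 and 106 normalised counts in double mutants, against 259, 329 and 258 in wildtype (log2 difference -1.32, adjusted p = 0.0128). The gene bmf2, a gene of the pro-apoptotic BH3-only class, had 569, 355 and 708 normalised counts in double mutants, against 48.1, 127 and 186 in wildtype (log2 difference 2.31, adjusted p = 0.0163). Both calls, and that of the remaining member that fell, which has only a clone name, were lost without double-mutant library 3 or wildtype library 1, 2 or 3 for bcl2a and the gene with a clone name, and without double-mutant library 3 or wildtype library 2 for bmf2, with adjusted p of up to 0.121.

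The cytokine signalling genes that were called went in both directions. Of 29 Jak, Stat and Socs genes, 5 rose and 2 fell (median difference 0.11, 1 fell without double-mutant library 3), with 1 without wildtype library 1 to 7 without double-mutant library 1 rising over the refits. socs3b, a feedback inhibitor of Stat3 signalling, had 5114, 1855 and 2456 normalised counts in double mutants, against 679, 463 and 543 in wildtype. Double-mutant library 1 was highest, and all 3 were above wildtype (log2 difference 2.36, SE 0.34, adjusted p = 0.00303). stat3 itself had 1199.9, 1143 and 1383 normalised counts in double mutants, against 647, 768 and 778 in wildtype (log2 difference 0.76, adjusted p = 0.0191). The gene il6st, the shared receptor subunit of the interleukin 6 family, had 1610, 2496 and 2195 normalised counts in double mutants, against 969.79, 994 and 1030.4 in wildtype (log2 difference 1.05, adjusted p = 0.00702). socs9, socs5b and socs5a also rose, with differences of 1.80, 1.13 and 1.06. The calls of stat3, socs9, socs5b and socs5a were lost without double-mutant library 3 or wildtype library 1, 2 or 3 for stat3 and socs5a, without wildtype library 1 or 2 for socs9, and without wildtype library 1, 2 or 3 for socs5b, with adjusted p of up to 0.123. The common gamma chain and its kinase fell together. jak3 had 108, 113 and 124 normalised counts in double mutants, against 1072, 852 and 1039.9 in wildtype, tight in each group (log2 difference -3.08, SE 0.21, adjusted p = 7.65e-05). The gene il2rga, the receptor subunit that signals through Jak3, had 93.1, 93.5 and 82.1 normalised counts in double mutants, against 274, 304 and 231 in wildtype (log2 difference -1.57, SE 0.26, adjusted p = 0.00455). Both calls were held in all 6 refits. Among 28 cytokine receptor genes, 2 rose (7.14%) and 2 fell (7.14%), against 4.59% and 6.24% of all genes tested (1 rose without double-mutant library 3, and 1 fell without double-mutant library 3 and 5 without double-mutant library 2). mpl, the thrombopoietin receptor, was the other to fall (log2 difference -1.78, adjusted p = 0.0115), and tnfrsf1b, a receptor for tumour necrosis factor, the other to rise (log2 difference 0.81, adjusted p = 0.042), both lost without double-mutant library 3 or wildtype library 2 or 3 for mpl, and without double-mutant library 3 or wildtype library 1, 2 or 3 for tnfrsf1b, with adjusted p of up to 0.171.

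Of 40 cytokine, chemokine and activation genes, 4 rose and 8 fell (median difference -0.69, 2 rose without double-mutant library 3), with 3 without wildtype library 1 to 15 without double-mutant library 2 falling over the refits. Besides il1b, the chemokine genes ccl35.1 and ccl34a.4 fell. ccl35.1 had 129, 254 and 124 normalised counts in double mutants, against 2364, 1831 and 1200.2 in wildtype (log2 difference -3.43, adjusted p = 0.000316), and ccl34a.4 had 286, 64.6 and 209 normalised counts in double mutants, against 1309, 1111 and 1146 in wildtype (log2 difference -2.91, adjusted p = 0.00778). irg1, whose product makes the antimicrobial metabolite itaconate, went the other way with 12226, 9336 and 8544 normalised counts in double mutants, against 3352, 3403 and 2570.1 in wildtype. All double-mutant libraries were above all wildtype libraries (log2 difference 1.69, SE 0.19, adjusted p = 0.000573). cxcl18b, a zebrafish chemokine gene that recruits neutrophils, had 754, 954 and 1009.9 normalised counts in double mutants, against 515, 299 and 264 in wildtype (log2 difference 1.39, adjusted p = 0.00982), a call lost without double-mutant library 3 or wildtype library 2 or 3, with adjusted p of up to 0.0598. Of 15 eicosanoid synthesis genes, 1 rose and 2 fell (0 rose without double-mutant library 3 and 2 without double-mutant library 2, and 0 fell without wildtype library 1). The cyclooxygenase genes ptgs2a (log2 difference -1.29, adjusted p = 0.011) and ptgs2b (log2 difference -0.92, adjusted p = 0.0398) fell and ptges3b (log2 difference 0.64, adjusted p = 0.0352) rose, calls lost without wildtype library 1 or 3 for ptgs2a, and without double-mutant library 3 or wildtype library 1, 2 or 3 for ptgs2b and ptges3b, with adjusted p of up to 0.18.

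**Figure D2:**
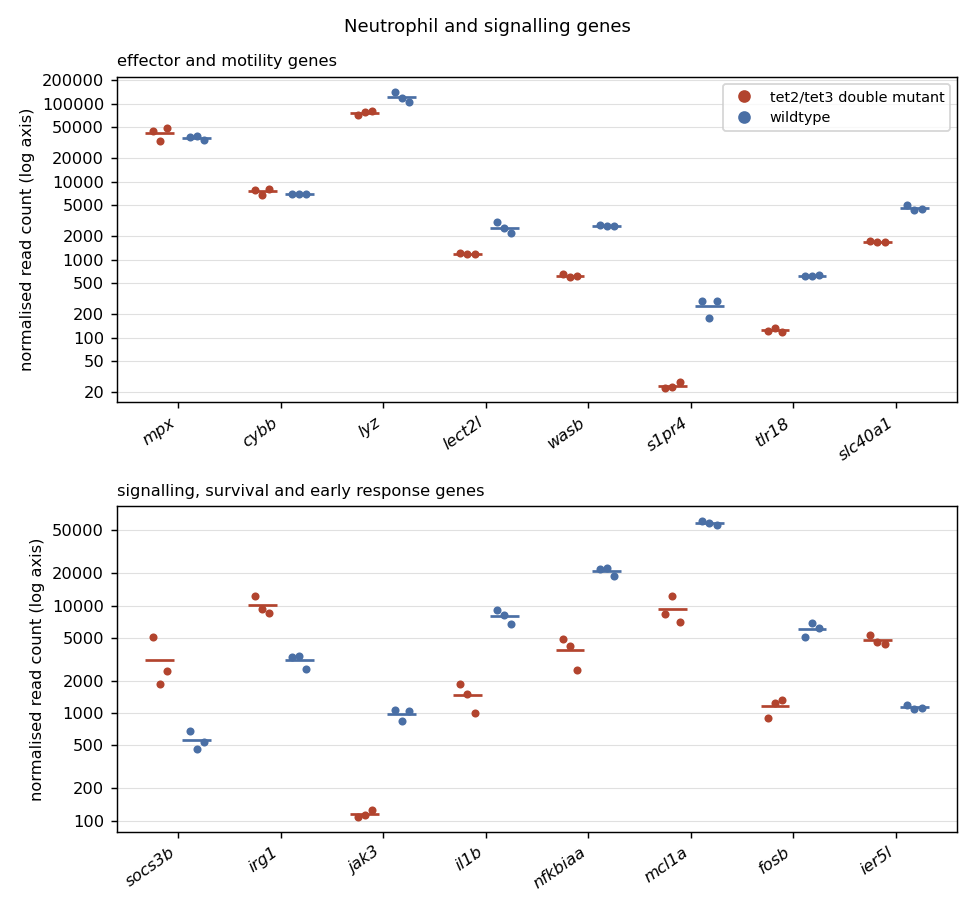
Normalised read counts (log axis) of 16 neutrophil and signalling genes in each library; points are the 3 tet2/tet3 double mutant libraries (left of each gene) and the 3 wildtype libraries (right), and bars are means. mpx and cybb overlap between the groups, whereas wasb, tlr18, jak3, il1b, nfkbiaa, mcl1a and fosb lie lower and socs3b, irg1 and ier5l higher in all double-mutant libraries. Groups did not overlap for 4970 of all 15917 genes tested.

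Heat and early response genes moved most among the genes of acute stress. Of 30 heat-inducible chaperone genes, 2 rose and 6 fell (median difference -1.67, 0 rose without wildtype library 1 and 4 without double-mutant library 1), with 4 without wildtype library 1 to 15 without double-mutant library 2 falling over the refits. The most abundant members varied between double-mutant libraries by more than the test allows. hsp70l had 5505, 156510 and 41711 normalised counts in double mutants, against 367870, 426510 and 396090 in wildtype, with library 2 highest and library 1 lowest among double mutants and no overlap with wildtype (log2 difference -3.58, SE 1.33, adjusted p = 0.193). Its reads may be split with the near-identical hsp70.3. hsp90aa1.1 had 418, 1339.6 and 253 normalised counts in double mutants, against 6117, 6528 and 6806 in wildtype (log2 difference -3.63, adjusted p = 0.0123), a call lost without double-mutant library 1, with adjusted p of up to 0.0943. hspb11 had 65.2, 9.63 and 12.7 normalised counts in double mutants, against 404, 412 and 351 in wildtype (log2 difference -4.19, adjusted p = 0.00298). The gene serpinh1b, a collagen chaperone that heat induces, had 11032, 16970 and 6635 normalised counts in double mutants, against 36655, 33761 and 35753 in wildtype (log2 difference -1.72, adjusted p = 0.00674). hspd1, a mitochondrial chaperonin, was higher at 10559, 14362 and 8558 normalised counts in double mutants, against 6675, 6262 and 5917 in wildtype (log2 difference 0.80, adjusted p = 0.0266, lost without wildtype library 1, 2 or 3, with adjusted p of up to 0.126). The constitutive chaperone genes hspa8 and hsp90ab1 had differences of 0.00 and 0.10 and did not pass. ppp1r15a, which encodes the stress-induced subunit of the phosphatase that restarts translation, had 3998, 12309 and 7091 normalised counts in double mutants, against 47083, 45708 and 41793 in wildtype. Double-mutant libraries were all lower, with library 1 the lowest (log2 difference -2.67, SE 0.35, adjusted p = 0.00266). Of 35 genes of the unfolded protein response, a list that holds ppp1r15a, 3 rose and 2 fell (0 rose without wildtype library 2 and 7 without double-mutant library 2, and 1 fell without double-mutant library 1). Its paralogue ppp1r15b was the other to fall (log2 difference -1.89, adjusted p = 0.0474, lost without double-mutant library 1 or 3 or wildtype library 1, 2 or 3, with adjusted p of up to 0.194). The risers were atf4b (log2 difference 0.76, adjusted p = 0.012), the lectin chaperone gene canx (log2 difference 0.65, adjusted p = 0.0152) and hyou1 (log2 difference 0.71, adjusted p = 0.0401), calls lost without double-mutant library 3 or wildtype library 2 or 3 for atf4b, without double-mutant library 3 or wildtype library 1, 2 or 3 for canx, and without wildtype library 1, 2 or 3 for hyou1, with adjusted p of up to 0.175.

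Of 41 immediate early genes, 7 rose and 13 fell (4 rose without double-mutant library 3), with 10 without wildtype library 1 to 16 without double-mutant library 1 falling over the refits. The genes fosb, fosab and jun of the transcription factor AP-1 fell, as did jdp2b, while fosl2, another member, named after its values were seen, rose (log2 difference 0.61, adjusted p = 0.0293, lost without double-mutant library 3 or wildtype library 1, 2 or 3, with adjusted p of up to 0.138). fosb had 895, 1236 and 1321 normalised counts in double mutants, against 5109, 6912 and 6215 in wildtype (log2 difference -2.41, SE 0.19, adjusted p = 0.000103). The gene fosab had 9479.5, 8413 and 7239.5 normalised counts in double mutants, against 24431, 24728 and 22909 in wildtype (log2 difference -1.53, adjusted p = 0.000303). The gene jun had 11403, 13167 and 10718 normalised counts in double mutants, against 31706, 29925 and 27146 in wildtype (log2 difference -1.33, adjusted p = 0.000582). jdp2b, whose product dimerises with Jun, had 4518, 2543 and 3198 normalised counts in double mutants, against 15815, 14246 and 14092 in wildtype (log2 difference -2.14, adjusted p = 0.000249). None of these 4 genes overlapped between the groups, and all 4 calls were held in all 6 refits. egr1 had 4292, 3592 and 3137 normalised counts in double mutants, against 6866, 7425 and 6863 in wildtype (log2 difference -0.95, adjusted p = 0.00491). The gene dusp1, a phosphatase that switches off MAP kinases, had 5020.5, 5055 and 3851 normalised counts in double mutants, against 11582, 12330 and 11236 in wildtype (log2 difference -1.35, adjusted p = 0.000779). Members of the nr4a family of orphan nuclear receptors and ier5l rose instead. ier5l had 5311, 4611 and 4362 normalised counts in double mutants, against 1200.2, 1078 and 1110 in wildtype (log2 difference 2.07, SE 0.15, adjusted p = 7.86e-05). The gene nr4a2b had 449, 558 and 857 normalised counts in double mutants, against 94.7, 73.2 and 71.2 in wildtype (log2 difference 2.91, SE 0.29, adjusted p = 0.000338). The gene nr4a1 had 26254, 13195 and 17721 normalised counts in double mutants, against 10714, 10520 and 9165 in wildtype (log2 difference 0.86, adjusted p = 0.0395). The call of nr4a1 was lost without double-mutant library 3 or wildtype library 1, 2 or 3, with adjusted p of up to 0.167. Among 23 glucocorticoid and stress genes, 1 rose and 2 fell (median difference -0.42, 0 rose without double-mutant library 3 and 2 without double-mutant library 2, and 7 fell without double-mutant library 2). fkbp5, a co-chaperone that glucocorticoids induce, had 378, 599.55 and 588 normalised counts in double mutants, against 2659, 2648 and 3065 in wildtype, with no overlap (log2 difference -2.44, SE 0.21, adjusted p = 0.000139).

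Clock genes had 10 members that rose and 2 that fell among 41 tested (median difference 0.11, 1 fell without double-mutant library 3 and 5 without double-mutant library 2), and the number that rose ran from 3 without double-mutant library 3 to 11 without double-mutant library 1. The vertebrate clock is a loop in which Per and Cry proteins repress their own activators, and in zebrafish light drives per2 and some cry genes directly. cry1bb had 859, 737 and 828 normalised counts in double mutants, against 301, 337 and 318 in wildtype (log2 difference 1.34, SE 0.18, adjusted p = 0.00168). The gene cry1aa had 808, 695 and 784 normalised counts in double mutants, against 307, 394 and 273 in wildtype (log2 difference 1.24, SE 0.21, adjusted p = 0.00477). Every double-mutant library was above every wildtype library for both. per2 had 1059, 1904 and 2332 normalised counts in double mutants, against 755, 642 and 673 in wildtype (log2 difference 1.28, adjusted p = 0.0144). The gene bhlhe41, a repressor of the loop, had 319, 142 and 298 normalised counts in double mutants, against 18.4, 73.2 and 41.5 in wildtype (log2 difference 2.60, adjusted p = 0.0117). The calls of per2 and bhlhe41 were lost without double-mutant library 3 or wildtype library 1, 2 or 3 for per2, and without double-mutant library 3 or wildtype library 3 for bhlhe41, with adjusted p of up to 0.0744. The related nfil3 genes went apart: nfil3-5 had 1992, 1943 and 2385 normalised counts in double mutants, against 803, 1021 and 1022 in wildtype (log2 difference 1.15, adjusted p = 0.00269). The gene nfil3-6 had 220.48, 135 and 202 normalised counts in double mutants, against 763, 882 and 666 in wildtype (log2 difference -2.07, adjusted p = 0.000827). The labels give no time of day for the collection of either group. In the hypoxia list 3 rose (8.33%) and 2 fell (5.56%) of 36 members (1 rose without double-mutant library 3 and 5 without double-mutant library 2, and 0 fell without double-mutant library 3 and 4 without double-mutant library 2). The smallest adjusted p among them was that of higd1a, at 2484, 1407 and 1811 normalised counts in double mutants, against 681, 420.31 and 479.6 in wildtype (log2 difference 1.84, SE 0.25, adjusted p = 0.00163).

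Genes at several steps of purine synthesis rose. Of 39 tested purine and pyrimidine genes, 9 rose and 2 fell (median difference 0.29, 0 fell without wildtype library 1 and 4 without double-mutant library 1), with 6 without double-mutant library 3 to 15 without double-mutant library 2 rising over the refits. 4 of the risers make the purine ring. gart had 889.75, 573 and 865 normalised counts in double mutants, against 353, 251 and 237 in wildtype (log2 difference 1.46, SE 0.25, adjusted p = 0.00545). The gene pfas, which acts among its steps, had 826, 707 and 1187 normalised counts in double mutants, against 286, 198 and 245 in wildtype (log2 difference 1.88, SE 0.25, adjusted p = 0.00139). paics, a later enzyme, had 2553, 1998 and 3042 normalised counts in double mutants, against 837, 685 and 721 in wildtype (log2 difference 1.74, SE 0.19, adjusted p = 0.000573). The gene atic, the last of the ring's synthesis, had 1545, 1009 and 1748 normalised counts in double mutants, against 657, 547 and 548 in wildtype (log2 difference 1.26, SE 0.22, adjusted p = 0.00663). The lowest double-mutant library was above the highest wildtype library for all 4, with double-mutant library 2 the lowest of its group each time. The branch to guanine nucleotides rose as well. impdh1b had 4115, 2788 and 5508 normalised counts in double mutants, against 1291, 1106 and 1067 in wildtype (log2 difference 1.79, SE 0.23, adjusted p = 0.00128). The gene gmps had 3051, 3199.5 and 4571 normalised counts in double mutants, against 1528, 1673 and 1465 in wildtype (log2 difference 1.19, SE 0.18, adjusted p = 0.00316). All 6 calls were held in all 6 refits. Pigment cells of zebrafish use the same enzymes, and pigment cell genes also rose in these libraries (values below). prps1a, whose product makes the activated ribose that the pathway starts from, had 3232, 1829 and 2872 normalised counts in double mutants, against 1281, 1313 and 1302 in wildtype (log2 difference 0.98, adjusted p = 0.0163).

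Folate metabolism, which feeds the purine ring and the methyl donor S-adenosylmethionine, had 5 members that rose and 1 that fell among 30 (0 rose without double-mutant library 3 and 9 without double-mutant library 2, and 0 fell without double-mutant library 3 and 2 without double-mutant library 1). The folate enzymes mthfd1b (log2 difference 0.82, adjusted p = 0.0152), mthfd1l (log2 difference 1.08, adjusted p = 0.0324) and shmt2 (log2 difference 0.84, adjusted p = 0.0384) rose. mat2aa, which encodes the enzyme that makes S-adenosylmethionine, had 5732, 3907 and 4592 normalised counts in double mutants, against 2776, 2878 and 2372 in wildtype (log2 difference 0.81, adjusted p = 0.0173), and its paralogue mat2ab also rose (log2 difference 0.94, adjusted p = 0.0405). bhmt, which regenerates methionine from betaine, had 1115, 952 and 629 normalised counts in double mutants, against 1818, 1589.9 and 1889 in wildtype (log2 difference -1.01, adjusted p = 0.017). The groups did not overlap for these genes. The calls of prps1a and of these 6 genes were lost without double-mutant library 3 or wildtype library 1, 2 or 3, with adjusted p of up to 0.173.

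The splicing genes that were called rose by small amounts. Of 88 members, 14 rose and 0 fell, and 75 had a positive difference (median 0.32), against a median of 0.01 over all genes tested. The number that rose ran from 1 without double-mutant library 3 to 28 without double-mutant library 2. The list took 1.82, 1.52 and 1.77% of all normalised counts in double mutants, against 1.13, 1.12 and 1.14% in wildtype. prpf8, the core protein of the spliceosome's active site, had 8475, 6216 and 7247 normalised counts in double mutants, against 3379, 4264 and 4456 in wildtype (log2 difference 0.86, adjusted p = 0.0129). eftud2, a GTPase of the same particle, had 3276, 1922 and 2842 normalised counts in double mutants, against 1336, 1219 and 1339 in wildtype (log2 difference 1.01, adjusted p = 0.0124). The gene prpf31, which joins it to the U4/U6 particle, had 1722, 843 and 1341 normalised counts in double mutants, against 534, 490.17 and 455 in wildtype (log2 difference 1.34, adjusted p = 0.0086). Double mutants were above wildtype in every library for all 3. The RNA-binding protein genes hnrnpa0a, with 2839.7, 2884 and 3216 normalised counts in double mutants, against 1654, 1722 and 1774 in wildtype (log2 difference 0.79, adjusted p = 0.00763), hnrnpub (log2 difference 0.67, adjusted p = 0.017) and sf3b3 (log2 difference 0.72, adjusted p = 0.0167), a subunit that recognises branch points, rose by similar amounts. All 6 calls were lost in at least 1 refit, without double-mutant library 3 or wildtype library 1 or 2 for prpf8, without double-mutant library 3 or wildtype library 1, 2 or 3 for eftud2, hnrnpub and sf3b3, without double-mutant library 3 or wildtype library 3 for prpf31, and without wildtype library 2 for hnrnpa0a, with adjusted p of up to 0.105.

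**Figure D3:**
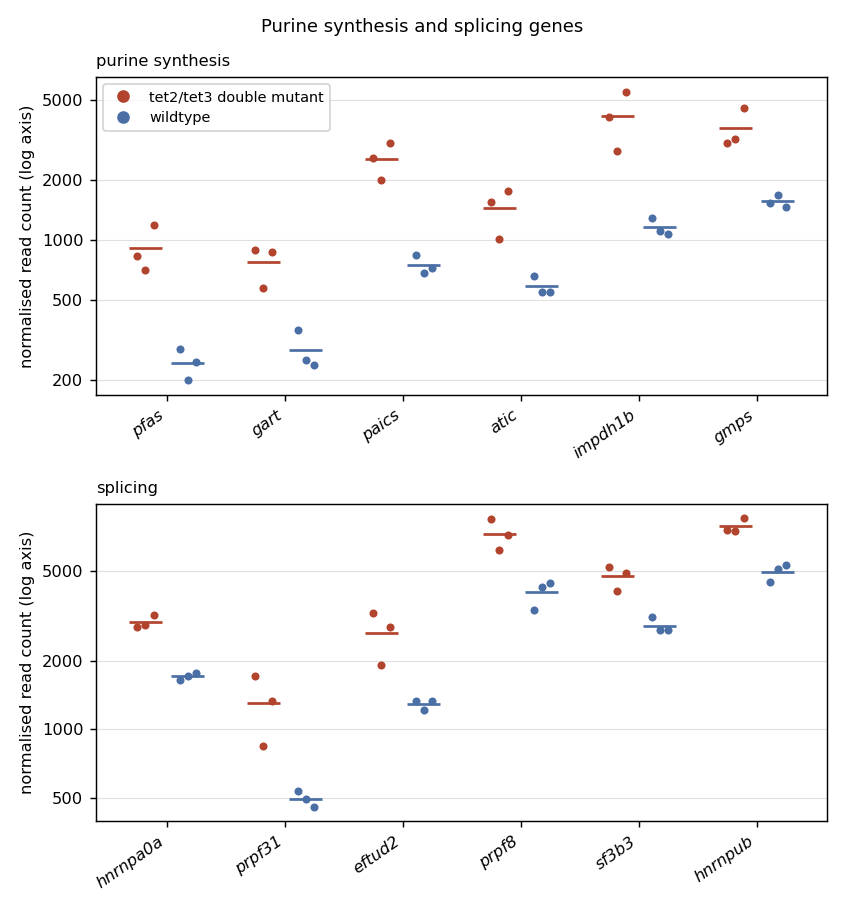
Normalised read counts (log axis) of 6 purine synthesis genes (top) and 6 splicing genes (bottom) in each library; points are the 3 tet2/tet3 double mutant libraries (left of each gene) and the 3 wildtype libraries (right), and bars are means. For all 12 genes the lowest double-mutant library lies above the highest wildtype library. The genes were taken from those called, and groups did not overlap for 1723 of the 1724 genes called.

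Genes that build and run ribosomes had few calls. None of 77 cytosolic ribosomal protein genes (median difference 0.13), none of 22 tRNA synthetase genes (0.29, 9 rose without double-mutant library 2) and none of 76 mitochondrial ribosome genes (0.08, 2 rose without double-mutant library 2, and 3 fell without double-mutant library 1) passed by limma with all 6 libraries. edgeR and DESeq2 called 0 of these as well, and 4, 5 and 2 genes of these lists had an unadjusted p under 0.05 by limma. After quantile normalization 11 cytosolic ribosomal protein genes rose. Among 69 ribosome biogenesis genes 2 rose, wdr43 and nolc1, while 61 had a positive difference (median 0.41). The number that rose ran from 0 without double-mutant library 3 to 32 without double-mutant library 2. rpl3 had 53825, 38020 and 41326 normalised counts in double mutants, against 40598, 33610 and 33842 in wildtype, with overlapping groups (log2 difference 0.29, adjusted p = 0.316). Of 62 translation factor genes, 5 rose (8.06%) and 3 fell (4.84%) (1 rose without double-mutant library 3 and 11 without double-mutant library 2, and 1 fell without double-mutant library 3). eif4g2b, an initiation factor that scaffolds cap-independent translation, had 9858, 11012 and 12165 normalised counts in double mutants, against 5839.9, 5395 and 5888 in wildtype (log2 difference 0.94, SE 0.15, adjusted p = 0.00316). The gene eif4a1a, an initiation helicase gene, had 20474, 11930 and 16478 normalised counts in double mutants, against 9566, 8259.6 and 7869.5 in wildtype (log2 difference 0.90, adjusted p = 0.0192). eef1a1b, a copy of an elongation factor gene, had 1.96, 1.70 and 3.18 normalised counts in double mutants, against 174, 199 and 287 in wildtype, at the level of a few reads in double mutants (log2 difference -6.07, adjusted p = 0.000185). Its paralogue eef1a1a fell too (log2 difference -3.30, adjusted p = 0.0128), whereas the abundant copy eef1a1l2 had 178080, 144120 and 168340 normalised counts in double mutants, against 178880, 157540 and 155160 in wildtype. The calls of eif4a1a and eef1a1a were lost without double-mutant library 3 or wildtype library 1, 2 or 3 for eif4a1a, and without double-mutant library 3 or wildtype library 3 for eef1a1a, with adjusted p of up to 0.103. None of 44 proteasome genes (median difference 0.27) and none of 20 CCT and prefoldin genes (0.37, 4 rose without double-mutant library 2) passed by limma or edgeR, while DESeq2 called 1 and 2 genes, and 7 of each list had an unadjusted p under 0.05 by limma. Without double-mutant library 2, 13 proteasome genes rose.

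Few mitochondrial genes were called. Of 75 genes for the respiratory chain and ATP synthase, 2 fell and 0 rose (4 rose without double-mutant library 2, and 7 fell without double-mutant library 1). The list holds nuclear genes alone. cox6a2, the muscle form, had 22.5, 43.6 and 54.0 normalised counts in double mutants, against 189, 192 and 184 in wildtype (log2 difference -2.29, adjusted p = 0.00486). The gene cox4i1l had 37.7, 44.2 and 35.5 normalised counts in double mutants, against 195, 213 and 191 in wildtype (log2 difference -2.33, adjusted p = 0.0014). mt-nd1, a subunit gene of complex I on the mitochondrial genome and not on that list, rose, with 26316, 22495 and 15607 normalised counts in double mutants, against 7689, 11110 and 8646 in wildtype (log2 difference 1.22, SE 0.22, adjusted p = 0.00674). The gene mt-co1 had 165650, 339670 and 149780 normalised counts in double mutants, against 157680, 226310 and 177880 in wildtype, with overlap (log2 difference 0.14, adjusted p = 0.824). In mitochondrial import 5 of 45 rose and none fell (0 rose without wildtype library 2 and 13 without double-mutant library 2, and 2 fell without double-mutant library 2). hspa9, which pulls proteins into the matrix, had 6316, 7197 and 6296 normalised counts in double mutants, against 4151, 3830.1 and 3681 in wildtype (log2 difference 0.76, adjusted p = 0.00891), and the pore genes tomm40 (log2 difference 0.65, adjusted p = 0.0317) and timm17a (log2 difference 0.88, adjusted p = 0.0269) rose by similar amounts. Those 3 calls were lost without wildtype library 2 or 3 for hspa9, and without double-mutant library 3 or wildtype library 1, 2 or 3 for tomm40 and timm17a, with adjusted p of up to 0.171.

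Of 34 glycolysis genes, 2 rose (5.88%) and 1 fell (2.94%) (1 rose without double-mutant library 3 and 7 without double-mutant library 2, and 0 fell without double-mutant library 3 and 6 without double-mutant library 1). slc2a3b, a glucose transporter gene, had 5207, 1903 and 5079.8 normalised counts in double mutants, against 817, 723 and 816 in wildtype (log2 difference 2.23, SE 0.35, adjusted p = 0.00566), with library 2 the lowest double mutant. ldha (log2 difference 0.62, adjusted p = 0.0294) rose and pfkfb3 (log2 difference -0.86, adjusted p = 0.0156) fell, both lost without double-mutant library 3 or wildtype library 1, 2 or 3, with adjusted p of up to 0.169. Of 42 genes of the tricarboxylic acid cycle (7 rose without double-mutant library 2, and 0 fell without double-mutant library 3 and 2 without double-mutant library 1), glud1b alone fell (log2 difference -0.55, adjusted p = 0.0359, lost without double-mutant library 3 or wildtype library 1, 2 or 3, with adjusted p of up to 0.147). In fatty acid metabolism 4 rose and 1 fell of 46 (1 rose without double-mutant library 3 and 9 without double-mutant library 2, and 2 fell without double-mutant library 2). The lipid droplet coat genes PLIN3, with 2354, 1237 and 2049 normalised counts in double mutants, against 775, 748 and 639 in wildtype (log2 difference 1.34, SE 0.24, adjusted p = 0.00687), and plin2 (log2 difference 1.28, adjusted p = 0.0359) rose, and elovl7b, a fatty acid elongase gene, fell to 35.3, 51.6 and 22.8 normalised counts in double mutants, against 666, 585 and 728 in wildtype (log2 difference -4.21, SE 0.33, adjusted p = 9.9e-05). The call of plin2 was lost without double-mutant library 1 or 3 or wildtype library 1, 2 or 3, with adjusted p of up to 0.134. Among 35 cholesterol genes, 3 rose and 0 fell (0 rose without wildtype library 1 and 6 without double-mutant library 2). They were ldlrb (log2 difference 1.43, adjusted p = 0.0198), insig1 (log2 difference 0.70, adjusted p = 0.0283) and srebf1 (log2 difference 1.09, adjusted p = 0.0452). These were lost without wildtype library 1, 2 or 3 for ldlrb, without double-mutant library 3 or wildtype library 1, 2 or 3 for insig1, and without double-mutant library 2 or 3 or wildtype library 1, 2 or 3 for srebf1, with adjusted p of up to 0.171.

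A receptor gene for iron uptake rose and the iron exporter gene fell. Of 32 iron and heme genes, 5 rose and 2 fell (1 fell without double-mutant library 3), with 2 without double-mutant library 3 to 7 without double-mutant library 2 rising over the refits. tfr1b, a transferrin receptor gene, had 2226, 1745 and 2350.3 normalised counts in double mutants, against 1161, 1143 and 1061 in wildtype (log2 difference 0.90, adjusted p = 0.0087). The gene slc40a1, which encodes ferroportin, the iron exporter of macrophages and other cells, had 1722, 1702 and 1707 normalised counts in double mutants, against 4999, 4361 and 4402 in wildtype. The double-mutant libraries of slc40a1 were nearly equal and all below wildtype (log2 difference -1.42, SE 0.14, adjusted p = 0.000338). alas1, the entry enzyme of heme synthesis, had 8924, 4858 and 7088 normalised counts in double mutants, against 2697, 2224 and 2009 in wildtype (log2 difference 1.56, SE 0.23, adjusted p = 0.00214). The gene hmox1a, which breaks heme down, had 5756, 4292 and 5597 normalised counts in double mutants, against 7945, 8130 and 7745 in wildtype (log2 difference -0.62, adjusted p = 0.0339). ireb2, an iron-sensing regulator, rose as well (log2 difference 0.79, adjusted p = 0.0288). The calls of tfr1b, hmox1a and ireb2 were lost without double-mutant library 3 or wildtype library 2 or 3 for tfr1b, and without double-mutant library 3 or wildtype library 1, 2 or 3 for hmox1a and ireb2, with adjusted p of up to 0.157.

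In lysosomes and traffic, 4 of 49 lysosomal genes rose (8.16%) and 2 fell (4.08%), against 4.59% and 6.24% of all genes tested (11 rose without double-mutant library 2, and 0 fell without double-mutant library 3 and 5 without double-mutant library 1). In autophagy, 4 of 35 genes rose (11.4%) and 1 fell (2.86%) (0 rose without wildtype library 3, and 0 fell without double-mutant library 3 and 4 without double-mutant library 2). None of 39 coat genes was called by limma or edgeR (DESeq2 called 3, 6 had an unadjusted p under 0.05 by limma, 3 rose without double-mutant library 2, and 4 fell without double-mutant library 1). grna, which encodes a progranulin, had 7696, 5996 and 7772 normalised counts in double mutants, against 3308, 3135 and 3372 in wildtype (log2 difference 1.12, SE 0.16, adjusted p = 0.00186). The gene grn1 had 471, 230.07 and 436 normalised counts in double mutants, against 82.0, 36.058 and 40.4 in wildtype (log2 difference 2.85, SE 0.40, adjusted p = 0.00193). atp6v0b, a subunit of the proton pump that acidifies lysosomes, had 3918, 2614 and 3663 normalised counts in double mutants, against 1644, 1547 and 1564 in wildtype (log2 difference 1.08, SE 0.18, adjusted p = 0.00482). All 3 calls were held in all 6 refits. vmp1, an autophagy membrane protein gene, had 2643, 1628 and 1463 normalised counts in double mutants, against 835, 903 and 651 in wildtype (log2 difference 1.23, adjusted p = 0.0107, lost without wildtype library 3, with adjusted p of up to 0.0685). ehd4, a recycling ATPase gene, had 979, 919 and 1113 normalised counts in double mutants, against 2099, 2160.1 and 2199 in wildtype (log2 difference -1.10, SE 0.15, adjusted p = 0.00187).

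Proliferation genes had few calls, with 1 riser and 1 faller among 81 (median difference 0.02, 0 rose without wildtype library 1 and 4 without double-mutant library 2, and 4 fell without double-mutant library 1). e2f8, a repressor of the cell cycle, had 1327, 1322 and 1499 normalised counts in double mutants, against 2844, 2649 and 2451 in wildtype (log2 difference -0.94, SE 0.15, adjusted p = 0.00401), and cdkn1ca, an inhibitor of cyclin-dependent kinases, rose (log2 difference 1.01, adjusted p = 0.035). The call of cdkn1ca was lost without wildtype library 1, 2 or 3, with adjusted p of up to 0.154.

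Chromatin genes had few calls. None of 28 histone methyltransferase genes (median difference -0.08, 4 fell without double-mutant library 2) and none of 28 acetylation genes (-0.16, 9 fell without double-mutant library 2) passed by limma or edgeR. DESeq2 called 1 and 0 of them, and 3 and 5 had an unadjusted p under 0.05 by limma. Of 24 Polycomb genes 2 rose (0 rose without double-mutant library 3, and 2 fell without double-mutant library 2), both copies of the gene for O-GlcNAc transferase, an enzyme that binds Tet proteins in mammals. ogt.1 had 2827, 3388 and 3077 normalised counts in double mutants, against 1812, 1998 and 1806 in wildtype (log2 difference 0.72, adjusted p = 0.0135), and ogt.2 had 1709, 2069 and 1718 normalised counts in double mutants, against 1200.2, 1246 and 1161 in wildtype (log2 difference 0.60, adjusted p = 0.036). Reads of the near-identical copies may be split between them. kdm7aa, a histone demethylase gene, had 1211, 1332 and 1208 normalised counts in double mutants, against 534, 558 and 632 in wildtype, in 2 bands that did not overlap (log2 difference 1.12, SE 0.17, adjusted p = 0.00243), and kdm1a rose by less (log2 difference 0.58, adjusted p = 0.0293). Among 32 remodelling genes (0 rose without double-mutant library 3), smarcd1 (log2 difference 0.66, adjusted p = 0.0191), smarca5 (log2 difference 0.64, adjusted p = 0.0315) and the insulator gene ctcf (log2 difference 0.61, adjusted p = 0.0287) rose. The calls of ogt.1, ogt.2, kdm1a, smarcd1, smarca5 and ctcf were lost without double-mutant library 3 or wildtype library 1, 2 or 3, with adjusted p of up to 0.16.

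Among developmental lists, more genes fell than rose in that of Hedgehog and retinoic acid and in that of BMP and TGF-beta. The activity of these pathways was not measured. Of 38 Hedgehog and retinoic acid genes, 9 fell and 0 rose (median difference -0.61, 2 rose without double-mutant library 1), with 2 without double-mutant library 3 to 19 without double-mutant library 2 falling over the refits. crabp2a, a carrier of retinoic acid, had 801, 907 and 1164 normalised counts in double mutants, against 2570.1, 2452 and 2434 in wildtype (log2 difference -1.39, SE 0.18, adjusted p = 0.00113). The gene crabp1b had 145, 78.2 and 61.4 normalised counts in double mutants, against 400.07, 571 and 533 in wildtype (log2 difference -2.47, SE 0.34, adjusted p = 0.00162). The degrading enzyme genes cyp26a1 (log2 difference -1.499, adjusted p = 0.0185) and cyp26b1 (log2 difference -1.23, adjusted p = 0.0184), the receptor gene rarga (log2 difference -0.77, adjusted p = 0.0218) and the Hedgehog release gene disp1 (log2 difference -1.37, adjusted p = 0.0187) fell too, calls lost without double-mutant library 3 or wildtype library 1, 2 or 3 for cyp26a1, cyp26b1 and disp1, and without double-mutant library 3 or wildtype library 2 or 3 for rarga, with adjusted p of up to 0.126. Of 57 BMP and TGF-beta genes, 1 rose and 13 fell (0 rose without wildtype library 2 and 2 without double-mutant library 2), and the number that fell ran from 2 without wildtype library 2 to 19 without double-mutant library 2. id4, a target and inhibitor of transcription factors, had 101, 85.0 and 50.3 normalised counts in double mutants, against 462, 344 and 499 in wildtype (log2 difference -2.49, SE 0.32, adjusted p = 0.0012), while id1 had 1021, 555 and 521 normalised counts in double mutants, against 279.91, 156 and 248 in wildtype (log2 difference 1.59, adjusted p = 0.0118). The ligand gene tgfb3 (log2 difference -1.36, adjusted p = 0.00659) and the antagonist genes bambib (log2 difference -1.38, adjusted p = 0.00818), smad6b (log2 difference -1.15, adjusted p = 0.00948) and fsta (log2 difference -1.47, adjusted p = 0.0102) fell. The calls of id1, tgfb3, bambib, smad6b and fsta were lost without wildtype library 2 for id1 and bambib, without wildtype library 3 for tgfb3, and without wildtype library 2 or 3 for smad6b and fsta, with adjusted p of up to 0.0689.

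In the Notch pathway 2 rose and 5 fell of 45 members (1 rose without double-mutant library 3 and 7 without double-mutant library 1, and 1 fell without wildtype library 1 and 14 without double-mutant library 2). dlb, a ligand gene, had 1568, 1629 and 1407 normalised counts in double mutants, against 615, 589 and 566 in wildtype (log2 difference 1.38, SE 0.16, adjusted p = 0.000757), while the target gene her4.1 had 649.67, 570.08 and 707 normalised counts in double mutants, against 1228, 1287 and 1002 in wildtype (log2 difference -0.86, adjusted p = 0.0143). Several her genes are near-identical copies whose reads may be split between them. In the Wnt list 3 rose (5.36%) and 2 fell (3.57%) of 56 (0 rose without double-mutant library 3 and 8 without double-mutant library 1, and 1 fell without wildtype library 2 and 9 without double-mutant library 2). The ligand gene wnt11 had 25.5, 25.5 and 26.5 normalised counts in double mutants, against 169.64, 143 and 152 in wildtype (log2 difference -2.54, SE 0.34, adjusted p = 0.00162). The gene ctnnb1, which encodes beta-catenin, had 6964, 6830.2 and 6903 normalised counts in double mutants, against 4562, 4912 and 4980 in wildtype (log2 difference 0.52, adjusted p = 0.0369). Of 52 FGF and Egf genes, 2 rose and 6 fell (1 rose without double-mutant library 3, and 2 fell without double-mutant library 3). il17rd, a feedback inhibitor of FGF receptors, had 480.15, 665 and 498 normalised counts in double mutants, against 1117, 1280.1 and 1276 in wildtype (log2 difference -1.17, SE 0.19, adjusted p = 0.00388). The calls of her4.1 and ctnnb1 were lost without wildtype library 1 or 2 for her4.1, and without double-mutant library 3 or wildtype library 1, 2 or 3 for ctnnb1, with adjusted p of up to 0.156.

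Hox genes, which give cells their position along the body, fell at the posterior end of the clusters. Of 56 Hox genes and cofactors, 6 rose and 7 fell (median difference 0.06, 0 rose without double-mutant library 3, and 3 fell without wildtype library 3), and the 7 that fell were hoxc11b, hoxc12a, hoxc12b, hoxa13a, hoxa13b, hoxc13a and hoxc13b. The grouping by paralogue number was made after the values were seen. All 12 tested genes of paralogue numbers 11 to 13 had negative differences (median -1.44), against 2 of 12 for numbers 1 to 4 (median 0.55), 7 of 11 for numbers 5 to 8 (median -0.08) and 3 of 9 for numbers 9 and 10 (median 0.16). hoxa13b had 86.2, 70.8 and 34.953 normalised counts in double mutants, against 322, 473 and 443 in wildtype (log2 difference -2.75, SE 0.36, adjusted p = 0.0014). The gene hoxc13b had 127, 73.1 and 59.8 normalised counts in double mutants, against 397, 363 and 386 in wildtype (log2 difference -2.20, SE 0.31, adjusted p = 0.00195). hoxc13a had 143, 107 and 79.4 normalised counts in double mutants, against 373, 435 and 429 in wildtype (log2 difference -1.94, SE 0.28, adjusted p = 0.00199). These 3 were apart in every library and held in all 6 refits. The Hox genes that rose were hoxc1a, hoxd3a, hoxb7a, hoxb8a and hoxb9a, with differences of 1.31 to 1.62. hoxb9a had 1709, 749.72 and 1136 normalised counts in double mutants, against 404, 523 and 394 in wildtype (log2 difference 1.37, adjusted p = 0.0136). The calls of these 5 and of hoxc11b, hoxc12a, hoxc12b and hoxa13a were lost without double-mutant library 3 or wildtype library 1, 2 or 3 for hoxc1a, hoxb7a and hoxc11b, without double-mutant library 3 or wildtype library 2 or 3 for hoxd3a, without double-mutant library 3 or wildtype library 1 or 2 for hoxb8a, without double-mutant library 3 or wildtype library 1 or 3 for hoxb9a, without wildtype library 3 for hoxc12a, without wildtype library 2 or 3 for hoxc12b, and without double-mutant library 2 or 3 or wildtype library 1, 2 or 3 for hoxa13a, with adjusted p of up to 0.15. hoxa13a, hoxc11b and the risers other than hoxb9a were named after their values were seen.

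**Figure D4:**
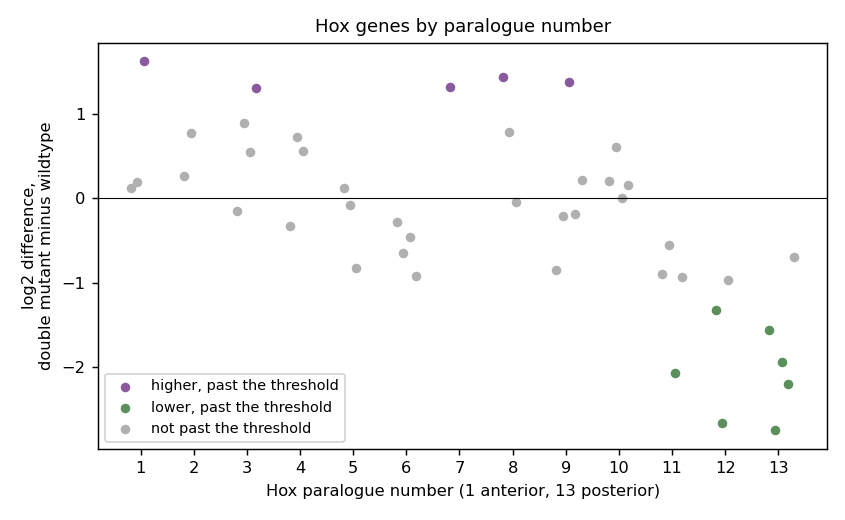
Difference between tet2/tet3 double mutant and wildtype (log2 scale) for 44 Hox genes, by paralogue number, which runs from anterior (1) to posterior (13); points of the same number are spread sideways, and colours mark genes past the threshold. All genes numbered 11 to 13 lie below 0, and the 5 genes that rose have numbers 1 to 9.

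Transcription factor genes of blood were lower on balance. Of 33 stem and progenitor factor genes, 1 rose and 11 fell (median difference -0.61, 0 rose without wildtype library 1 and 3 without double-mutant library 1), with 3 without wildtype library 3 to 14 without double-mutant library 2 falling over the refits. fli1a, an ETS factor of blood and vessel progenitors, had 905, 970.16 and 989 normalised counts in double mutants, against 1965, 2306 and 2034 in wildtype (log2 difference -1.14, SE 0.15, adjusted p = 0.00162). The gene runx3 had 394, 424 and 459 normalised counts in double mutants, against 905, 1034 and 934 in wildtype (log2 difference -1.17, SE 0.17, adjusted p = 0.00265). Several members, fli1a, erg and etv2 among them, are also on the endothelial list. Of 36 myeloid factor genes, 5 rose and 9 fell (median difference -0.39, 1 rose without double-mutant library 3, and 4 fell without wildtype library 1). irf8, which favours macrophages over neutrophils in zebrafish, had 1159, 521 and 739 normalised counts in double mutants, against 2152, 1979.8 and 1949 in wildtype (log2 difference -1.41, adjusted p = 0.00814), a call lost without wildtype library 1, with adjusted p of up to 0.0503. mafba, a macrophage factor, had 882, 1158 and 929 normalised counts in double mutants, against 3379, 3649.8 and 3367 in wildtype (log2 difference -1.82, SE 0.16, adjusted p = 0.000185). The gene cebpg had 1173, 1428 and 1223 normalised counts in double mutants, against 653, 698 and 669.54 in wildtype (log2 difference 0.92, SE 0.17, adjusted p = 0.00706). spi1b and spi1a, the genes of Pu.1, cebpa and myb, chosen after their values were seen, fell by 0.61, 0.68, 0.71 and 0.93 on the log2 scale. spi1b had 3467, 3516 and 4348 normalised counts in double mutants, against 5932, 6002 and 5319.5 in wildtype, and cebpa had 3008, 2346 and 1967 normalised counts in double mutants, against 4334, 3816 and 3656 in wildtype, both without overlap. These 4 calls were lost without wildtype library 1, 2 or 3 for spi1b, without double-mutant library 3 or wildtype library 1, 2 or 3 for spi1a and cebpa, and without double-mutant library 3 or wildtype library 2 or 3 for myb, with adjusted p of up to 0.161.

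Extracellular matrix genes made up the list with the largest share of falling genes. Of 76 tested collagen, laminin and matrix genes, 3 rose and 37 fell (median difference -0.72, 8 rose without double-mutant library 1), with 22 without wildtype library 3 to 44 without double-mutant library 2 falling over the refits. The list took 1.45, 1.44 and 1.37% of all normalised counts in double mutants, against 2.83, 2.9 and 3.28% in wildtype, with no overlap. col1a1a, a chain of type I collagen, had 77925, 54091 and 48074 normalised counts in double mutants, against 232180, 223590 and 248870 in wildtype. The highest double-mutant library was far below the lowest wildtype library (log2 difference -1.998, SE 0.18, adjusted p = 0.000207). The other chains of that collagen fell by less: col1a1b had 17436, 20271 and 18853 normalised counts in double mutants, against 26880, 30086 and 34515 in wildtype (log2 difference -0.69, adjusted p = 0.0172). The gene col1a2 had 14140, 15073 and 13776 normalised counts in double mutants, against 21464, 22917 and 27073 in wildtype (log2 difference -0.73, adjusted p = 0.0122). Their calls were lost without double-mutant library 3 or wildtype library 2 or 3, with adjusted p of up to 0.11. Genes of the fin fold fell with them. and1, which encodes actinodin 1, a structural protein of the fibres that stiffen the larval fin fold, had 7267, 5660 and 7446 normalised counts in double mutants, against 33807, 29291 and 36839 in wildtype (log2 difference -2.30, SE 0.17, adjusted p = 7.83e-05). The gene and2 had 19393, 9192 and 11263 normalised counts in double mutants, against 49145, 40649 and 47060 in wildtype (log2 difference -1.85, SE 0.25, adjusted p = 0.00169).

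Further matrix genes covered cartilage, fibrillar matrix and basement membrane. col9a1b, a chain of a cartilage collagen, had 43.1, 92.9 and 41.8 normalised counts in double mutants, against 3965, 2023 and 1491 in wildtype, the wildtype libraries themselves spreading widely (log2 difference -5.35, SE 0.41, adjusted p = 0.000148). dcn, which encodes the proteoglycan decorin, had 514, 844 and 824 normalised counts in double mutants, against 3445, 3564 and 3779.8 in wildtype (log2 difference -2.34, SE 0.21, adjusted p = 0.000179). FBLN1, the gene of fibulin 1, had 1038, 706 and 793 normalised counts in double mutants, against 3449, 3699 and 3424 in wildtype (log2 difference -2.08, SE 0.18, adjusted p = 0.000148). thbs4b, the gene of a thrombospondin of tendon, had 1379, 799 and 842 normalised counts in double mutants, against 3328, 3987 and 4286 in wildtype (log2 difference -1.98, SE 0.22, adjusted p = 0.000623). The gene col6a2 had 901, 1292 and 1238 normalised counts in double mutants, against 3037, 3921 and 4758 in wildtype (log2 difference -1.76, SE 0.21, adjusted p = 0.000827). Each of these was lower in every double-mutant library, and all 5 calls were held in all 6 refits. nid2b, which encodes a nidogen of basement membranes, had 0, 0 and 4.24 normalised counts in double mutants, against 151, 157 and 146 in wildtype, with 2 double-mutant libraries at 0 (log2 difference -6.45, adjusted p = 0.00113). The 3 risers of the list, col15a1b, lama1 and nid1b, named after their values were seen, are basement membrane genes as well. Of 31 protease and inhibitor genes, 2 rose and 4 fell (5 rose without double-mutant library 2, and 1 fell without wildtype library 3 and 7 without double-mutant library 1). mmp17b, a membrane-type protease gene that migrating neural crest cells of zebrafish express, had 858, 459.58 and 660.4 normalised counts in double mutants, against 106, 72.1 and 118 in wildtype (log2 difference 2.71, SE 0.30, adjusted p = 0.000597). The gene adamts1 had 378, 431 and 309 normalised counts in double mutants, against 861, 933 and 1007 in wildtype (log2 difference -1.33, SE 0.20, adjusted p = 0.00235).

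**Figure D5:**
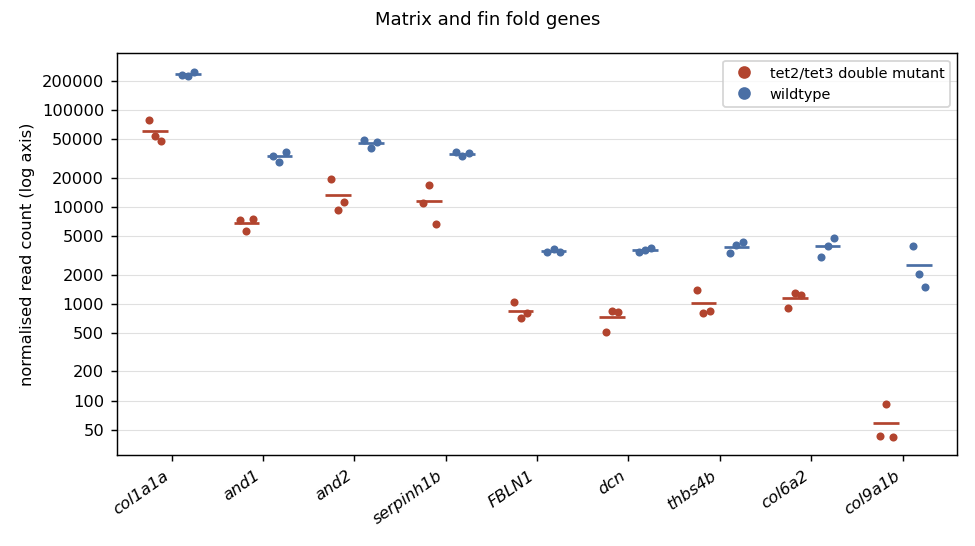
Normalised read counts (log axis) of 9 matrix and fin fold genes in each library; points are the 3 tet2/tet3 double mutant libraries (left of each gene) and the 3 wildtype libraries (right), and bars are means. All 9 genes are lower in every double-mutant library, and col9a1b has the widest gap. They were taken from the genes called, of which 1723 of 1724 had no overlap between the groups.

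Markers of other cells moved in both directions. Of 61 muscle and heart genes, 22 fell and 0 rose (median difference -2.35), with 12 without wildtype library 1 to 46 without double-mutant library 1 falling over the refits. Without double-mutant library 1, in which the list's share of counts was highest of all 6, more of them were called. The members that fell include cmn, which encodes a protein of the notochord sheath (values below). xirp2a, which encodes a protein of muscle attachment sites, had 115, 149.6 and 142 normalised counts in double mutants, against 1006, 1438 and 1492 in wildtype (log2 difference -3.25, SE 0.23, adjusted p = 7.65e-05). The gene tnnt2c, a troponin gene, had 85.7, 61.2 and 76.8 normalised counts in double mutants, against 768, 607 and 581 in wildtype (log2 difference -3.11, SE 0.25, adjusted p = 0.000103). vmhcl, a ventricular myosin gene, had 25.0, 26.1 and 23.8 normalised counts in double mutants, against 299.7, 171 and 344 in wildtype (log2 difference -3.33, SE 0.37, adjusted p = 0.000571). Those 3, taken from the members with the smallest p, were low in double-mutant library 1 as in libraries 2 and 3. The list as a whole was not. Its summed normalised counts were 97782, 11083 and 14278 in double mutants, against 49581, 48095 and 52623 in wildtype. Of 42 endothelial genes, 1 rose and 16 fell (median difference -0.998, 0 rose without double-mutant library 3 and 3 without double-mutant library 2), with 7 without wildtype library 2 to 23 without double-mutant library 2 falling over the refits. The list took 0.0735, 0.116 and 0.0909% of counts in double mutants, against 0.123, 0.135 and 0.126% in wildtype. vsg1 had 137, 208 and 126 normalised counts in double mutants, against 569.71, 516 and 569 in wildtype (log2 difference -1.84, SE 0.25, adjusted p = 0.00162). The gene flt4, the receptor of lymphatic and venous growth factors, had 44.6, 74.2 and 45.5 normalised counts in double mutants, against 230.43, 214 and 182 in wildtype (log2 difference -1.94, SE 0.32, adjusted p = 0.00477). The endothelial riser, robo4, was named after its values were seen and had 1179, 867 and 843 normalised counts in double mutants, against 589.51, 535 and 566 in wildtype (log2 difference 0.76, adjusted p = 0.0315), a call lost without double-mutant library 3 or wildtype library 1, 2 or 3, with adjusted p of up to 0.145.

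Of 27 macrophage genes, 3 rose and 10 fell (median difference -0.39, 1 rose without double-mutant library 3), with 6 without wildtype library 1 to 12 without double-mutant library 1 falling over the refits. The risers include grn1 (log2 difference 2.85, adjusted p = 0.00193 by limma), given above with the lysosomal genes. marco, a scavenger receptor gene, had 975, 822 and 833 normalised counts in double mutants, against 3933, 3854 and 3833 in wildtype. Each group was tight (log2 difference -2.15, SE 0.15, adjusted p = 7.65e-05). The list took 0.389, 0.352 and 0.385% of counts in double mutants, against 0.465, 0.452 and 0.431% in wildtype, without overlap. Of 24 complement and acute phase genes, 4 rose (16.7%) and 6 fell (25%) (1 rose without wildtype library 1). The risers include a gene with the symbol c6 (log2 difference 2.91, adjusted p = 0.00088 by limma), a call held in all 6 refits. cfp, which encodes properdin, a stabiliser of the alternative pathway that neutrophils store, had 292, 179.64 and 426 normalised counts in double mutants, against 5057, 5032 and 5303 in wildtype (log2 difference -4.18, SE 0.27, adjusted p = 7.65e-05). The gene ptx3a, a pentraxin gene, had 362, 231 and 259 normalised counts in double mutants, against 1931, 1899.8 and 1882 in wildtype (log2 difference -2.77, SE 0.20, adjusted p = 7.86e-05). c1qc, of the classical pathway, had 62.7, 13.6 and 35.5 normalised counts in double mutants, against 459, 292 and 305 in wildtype (log2 difference -3.42, adjusted p = 0.00241). In the antigen presentation and interferon list 3 of 27 fell (5 fell without double-mutant library 1), isg15 among them with 9.31, 71.4 and 31.8 normalised counts in double mutants, against 650.29, 563 and 543 in wildtype (log2 difference -4.33, adjusted p = 0.00249). mxc, another interferon-induced gene, had 3.92, 3.40 and 7.41 normalised counts in double mutants, against 80.6, 81.1 and 78.4 in wildtype (log2 difference -3.84, adjusted p = 0.00316).

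Pigment cell and neuronal genes were the lists with the largest shares of rising genes. Of 25 neural crest genes, 6 rose and 3 fell (7 fell without double-mutant library 2). Of 23 melanophore genes, 8 rose and 1 fell (median difference 1.16, 5 rose without double-mutant library 3 and 13 without double-mutant library 2, and 0 fell without double-mutant library 3). Of 33 xanthophore and iridophore genes, 12 rose and 1 fell (median 1.19, 2 fell without double-mutant library 2), with 5 purine synthesis genes given above among the risers. sox10, the master factor of pigment and glial crest derivatives, had 3969.6, 1992 and 3067 normalised counts in double mutants, against 305, 270.44 and 318 in wildtype (log2 difference 3.28, SE 0.24, adjusted p = 7.86e-05). The gene erbb3b, a receptor of crest and Schwann cells, had 1579, 1289.8 and 1708 normalised counts in double mutants, against 139, 149.87 and 249 in wildtype (log2 difference 3.12, SE 0.25, adjusted p = 0.000103). ltk, a receptor kinase of iridophores, had 1029, 1259.7 and 1542 normalised counts in double mutants, against 131, 198 and 172 in wildtype (log2 difference 2.92, SE 0.24, adjusted p = 0.000103). The gene gpnmb, a melanosome protein gene that phagocytes of mammals also express, had 3358, 3222 and 7541 normalised counts in double mutants, against 424, 200.57 and 325 in wildtype (log2 difference 3.84, SE 0.38, adjusted p = 0.000615). No wildtype library reached the lowest double-mutant library for any of these 4. The crest genes that fell were led by msx2b with 106, 70.268 and 73.1 normalised counts in double mutants, against 519, 641 and 678 in wildtype (log2 difference -2.88, SE 0.26, adjusted p = 0.00019) and msx1b with 421, 538 and 426 normalised counts in double mutants, against 1089.9, 1099 and 1110 in wildtype (log2 difference -1.26, SE 0.18, adjusted p = 0.00194), which also mark the fin fold. Melanophore genes took 0.185, 0.12 and 0.185% of counts in double mutants, against 0.0867, 0.0752 and 0.0768% in wildtype.

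Of 39 sympathoadrenal and neuronal genes, 14 rose and 1 fell (median difference 0.77, also with dbh at its detection floor, 0 fell without double-mutant library 3), with 5 without wildtype library 3 to 19 without double-mutant library 1 rising over the refits. dbh, which encodes the enzyme that makes noradrenaline, had 124, 15.3 and 203 normalised counts in double mutants and 0 in all 3 wildtype libraries. Against a floor of 3 reads per wildtype library its mean was at least 30.7-fold higher in double mutants (adjusted p = 0.00732, lost without double-mutant library 3, with adjusted p of up to 0.0846). phox2a, a factor of the same neurons, had 277, 168 and 374 normalised counts in double mutants, against 33.9, 47.3 and 36.8 in wildtype (log2 difference 2.70, SE 0.37, adjusted p = 0.00161). The gene neurod1 had 384, 349 and 315 normalised counts in double mutants, against 38.2, 74.4 and 51.0 in wildtype (log2 difference 2.70, SE 0.31, adjusted p = 0.000757). The gene sox19a, a neural progenitor factor, had 808, 1274 and 977 normalised counts in double mutants, against 299.7, 270.44 and 271 in wildtype (log2 difference 1.84, SE 0.21, adjusted p = 0.000757). All were higher in every double-mutant library. Among 40 epidermis genes, 6 rose and 5 fell (1 rose without double-mutant library 3, and 1 fell without wildtype library 3 and 8 without double-mutant library 2). The gene col17a1a, of the junction between epidermis and basement membrane, had 1047, 1595 and 1354 normalised counts in double mutants, against 438, 554 and 439 in wildtype (log2 difference 1.47, SE 0.21, adjusted p = 0.00192). The gene icn had 233, 135 and 178 normalised counts in double mutants, against 650.29, 463 and 630.37 in wildtype (log2 difference -1.69, SE 0.27, adjusted p = 0.00332). Of 29 erythroid genes, 2 fell and 0 rose (9 rose without double-mutant library 2, and 0 fell without wildtype library 1). The erythroid list took 0.0922, 0.0572 and 0.192% of counts in double mutants, against 0.0653, 0.0684 and 0.0484% in wildtype, with overlap.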

How the data were processed

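Neutrophils of zebrafish embryos were sorted on an mpx:GFP reporter, their RNA was taken up with an RNeasy micro kit, and TruSeq RNA v2 libraries followed (per the labels). Because strand is not marked by this kit, a gene's reads may include those of an antisense or overlapping neighbour. The submitters' processing notes list DESeq2, Cufflinks and TopHat, without roles. Tool versions, counting program, annotation and genome build are not given there. The authors deposited 1 signal value per gene and library. In each library these values are whole multiples of the worth of 1 read (100% of values, tolerance 0.01 reads), so they are read counts scaled by library. Totals in M reads stand in the report; a floor of 3 reads covers counting error only. The table holds 15937 genes, 15194 of whose identifiers are in the name table. 15 symbols had become dates, and 14 were restored. 0 per-sample columns were unmatched.

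The test was limma 3.58.1 in R 4.3.3 on log2(value + 1), with trend and robust moderation, fitted to the 6 libraries with 2 group means, two-sided. P-values were adjusted by Benjamini and Hochberg's method and called under 0.05. The filter asked for values of 10 or more in 3 or more of these libraries and passed 15917 genes. edgeR 4.0.16 and DESeq2 1.42.0 ran on the recovered reads as alternatives. The 76 gene lists have 3163 entries, 2817 of them found. The comparison, lists and tests were chosen with earlier results of these data known, so counts over a list are descriptions. The results of 2 of the lists are not reported here.

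Named genes are tet1, tet2, tet3, socs3b, mpx and lyz, and the 10 of the highest mean value. Among called genes with no clone name and no overlap between the groups, they are the 10 of the highest mean in each direction and the 5 largest rises and 5 largest falls whose higher group averaged 50 or more. The rule also takes from each list up to 6 called members with the smallest p (the 3 of the highest mean where fewer than 2 were called). Others are said to have been chosen later. Replicate numbers were not treated as pairs in the test. Same-numbered libraries of the groups correlated at 0.19, 0.14 and 0.02 in their deviations, which does not settle whether they are pairs. On simulated data for this comparison over 15917 genes, limma called 24 of 100 genes set to a 2-fold change, 84 of 100 set to a 4-fold change and 9 unchanged genes. The changed genes were drawn from those with a mean value of at least 50. Both groups were given the same spread, whereas the real replicates correlated less in double mutants than in wildtype. Replicates differed by 8.51 to 284 times sampling noise (chi-square per degree of freedom), so none is a copy of another. Alternatives covered the libraries fitted, pseudocount, filter, scaling, depth, test, moderation, library weights, a replicate block, hsp70l as a covariate and each library left out.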

Additional observations from a re-analysis of the deposited data

How the results depend on the processing

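Of the 1724 genes called, 1707 were also called with a replicate block, which called 2389 (1077 higher, 1312 lower). The groups' same-numbered libraries correlated at 0.19, 0.14 and 0.02 in their deviations, and the other pairs at -0.19 to 0.09. With 3 libraries per group these values do not settle whether the numbers mark pairs. DESeq2 called 2506, with 1175 higher and 1331 lower. Library weights called 5507 (2622 higher, 2885 lower). With hsp70l as a covariate over all 15 libraries 159 genes were called (34 higher, 125 lower), and 1973 had an unadjusted p under 0.05. In it 0 purine and pyrimidine genes and 0 splicing genes rose. Of granule protein genes 0 fell, of endothelial genes 1, of matrix genes 3, and of muscle and heart genes 13. That fit draws on groups outside this comparison and the cause of its lower count was not tested. The other whole-table settings gave 1303 to 1871 genes. Leaving out 1 library gave 633 to 3114 genes, 258 to 1251 higher and 356 to 1863 lower. After quantile normalization lyz had a difference of 0.103, against -0.67 as reported, and eef1a1l2 had 0.634 (adjusted p = 0.0215 by limma), against -0.01 as reported. The cause was not tested. Without the heat-inducible chaperones in the totals, 870 genes rose and 886 fell, and the median difference over all genes was 0.07. Double-mutant libraries hold 27.19 to 31.06 M reads and wildtype libraries 12.18 to 14.84 M, and thinning all libraries to the lowest total called 1739 genes. The self-test's recovery of 2-fold changes limits what a gene without a call shows.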

Other observations

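Some of the largest changes were in genes known from other tissues. The gene cmn, which encodes calymmin, a protein of the notochord sheath, had 12.7, 0 and 1.59 normalised counts in double mutants, against 1856, 883 and 1066 in wildtype. The gene ngs, known from the notochord as notochord granular surface, had 1.47, 0 and 0 normalised counts in double mutants, against 683, 99.2 and 159 in wildtype. Both were at 12.7 or below in every double-mutant library (log2 difference -8.52, SE 0.85, adjusted p = 0.000623 for cmn, and log2 difference -7.36, SE 0.86, adjusted p = 0.000772 for ngs). ankrd1b, a stretch-responsive gene of muscle, had 24.0, 0 and 2.65 normalised counts in double mutants, against 409.97, 340.3 and 349 in wildtype (log2 difference -6.35, SE 0.99, adjusted p = 0.00476). The gene fut9b, a fucosyltransferase gene, had 6.37, 2.83 and 0 normalised counts in double mutants, against 199, 215 and 256 in wildtype (log2 difference -6.20, SE 0.74, adjusted p = 0.000851). In the other direction, POU2AF1, which encodes a coactivator of B lymphocytes in mammals, had 52.4, 112 and 89.0 normalised counts in double mutants and 0 in every wildtype library, at least 22.7-fold higher against a floor of 3 reads per wildtype library. prdm8, a zinc finger gene of neurons, had 71.0, 115 and 62.0 normalised counts in double mutants, against 4.24, 0 and 1.19 in wildtype (log2 difference 5.16, SE 0.85, adjusted p = 0.00444). The gene ednrba, an endothelin receptor gene of pigment lineages, had 220.48, 147 and 438 normalised counts in double mutants, against 15.6, 2.25 and 4.75 in wildtype (log2 difference 5.17, SE 0.67, adjusted p = 0.00122). These 7 calls were kept in all 6 refits that left out 1 library.

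Among abundant genes that rose, txnipa, which encodes an inhibitor of thioredoxin and of glucose uptake, had 17495, 12714 and 13390 normalised counts in double mutants, against 8278, 6653 and 7822 in wildtype (log2 difference 0.93, adjusted p = 0.00778). The RNA-binding gene hnrnpaba had 15666, 14906 and 17151 normalised counts in double mutants, against 10392, 10890 and 10966 in wildtype (log2 difference 0.56, adjusted p = 0.0273). The gene pnrc2, a decay factor gene, had 10727, 10450 and 10530 normalised counts in double mutants, against 8122, 7299.6 and 7234 in wildtype (log2 difference 0.49, adjusted p = 0.0484). Every double-mutant library was above every wildtype library, and the calls of these 3 genes were lost without wildtype library 2 for txnipa, and without double-mutant library 3 or wildtype library 1, 2 or 3 for hnrnpaba and pnrc2, with adjusted p of up to 0.216. Among genes of mRNA methylation and decay (4 rose without double-mutant library 1, and 0 fell without double-mutant library 3 and 2 without double-mutant library 2), zfp36l2, whose product destabilises AU-rich transcripts, was the 1 gene that fell of 55 tested, with 973, 1264 and 1090.4 normalised counts in double mutants, against 1779.8, 1795 and 1852 in wildtype (log2 difference -0.71, adjusted p = 0.0202, lost without double-mutant library 3 or wildtype library 1, 2 or 3, with adjusted p of up to 0.107), and 0 rose. In the list of mast cell, eosinophil and lymphoid markers 2 rose and 3 fell of 20 (0 rose without wildtype library 1, and 1 fell without wildtype library 2 and 6 without double-mutant library 2). The fallers include cpa5 and mpl, given above. gata2a, which mast cells, eosinophils and neural tissue share, had 322, 697 and 288 normalised counts in double mutants, against 100.37, 169 and 141 in wildtype (log2 difference 1.58, adjusted p = 0.0209). The gene blnk, a B cell adaptor gene, had 1337, 1029.7 and 1317 normalised counts in double mutants, against 816, 757 and 792 in wildtype (log2 difference 0.63, adjusted p = 0.0435). Both calls were lost without wildtype library 1, 2 or 3 for gata2a, and without double-mutant library 3 or wildtype library 1, 2 or 3 for blnk, with adjusted p of up to 0.184.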
